A study of Oryza sativa with 10 samples.

Results

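The genes described here are 10 MADS-box transcription factor genes of rice (Oryza sativa) that are known from the floral organs, the ovule and the young seed. They were taken by their locus identifiers out of 55801 features, and all 10 passed the filter on low counts. They are the C-class genes MADS3 (LOC_Os01g10504) and MADS58 (LOC_Os05g11414) and the ovule genes of the same AGAMOUS lineage, MADS13 (LOC_Os12g10540) and MADS21 (LOC_Os01g66290). The B-sister genes are MADS29 (LOC_Os02g07430), MADS30 (LOC_Os06g45650) and MADS31 (LOC_Os04g52410), and the B-class genes are MADS2 (LOC_Os01g66030), MADS4 (LOC_Os05g34940) and MADS16 (LOC_Os06g49840).

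RNA was sequenced from developing seeds without the husk, collected 72 and 48 hours after fertilization (HAF). The lines were OE78-8 (here OE78) and OE79-3 (OE79), labelled as overexpressing the type I MADS genes MADS78 and MADS79, Cr78_8.22.2 (CR78) and Cr79_11.25.3 (CR79), labelled as edited by CRISPR at those genes, and wild type (WT). A genotype has 1 library per time, 10 in all, and no replicate within a time. Each manipulation rests on 1 line, and the promoter of the transgenes, the edited alleles and the cultivar were not given in the sources used here. The p-values measure the spread between these libraries, which may be technical, and an effect of the target gene and any other peculiarity of its line cannot be told apart.

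In the floral ABC model as worked out in rice, the B-class protein MADS16 pairs with MADS2 or MADS4 to specify lodicules and stamens, and the C-class proteins MADS3 and MADS58 act in stamens and carpels. MADS13 gives the ovule its identity. B-sister genes are the closest relatives of the B-class genes and act in the ovule and the maternal tissues of the seed, and MADS29 is known for its role in the breakdown of the nucellus, the maternal tissue that the growing endosperm replaces. These proteins work in complexes with other MADS proteins, and 11 genes of the SEPALLATA, AGL6 and AP1 types and MADS32 served here as a list of partner genes.

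Total counts were 12267337 in CR79 at 72 HAF and 15349522 to 18040600 in the other 9 libraries. Reads of MADS78 (LOC_Os09g02830) were raised in OE78 at 72 HAF alone, at 138 counts per 1000000 reads (CPM) against at most 0.349 CPM in the other libraries. MADS79 (LOC_Os01g74440) stood at 0.465 and 2.27 CPM at 72 and 48 HAF in OE79 and at 1.11 and 1.94 CPM in WT, so OE79 and OE78 at 48 HAF name libraries by their labels only. With 20 and 33 MADS79 reads in WT at 72 and 48 HAF, and MADS78 lower still, the CRISPR labels could not be checked by level. CR78 at 48 HAF stood apart for heat shock, with HSP101 (LOC_Os05g44340) at 143 CPM against 9.68 to 18.3 CPM elsewhere. The summed level of 8 endosperm marker genes was 131 CPM in OE78, 138 CPM in OE79, 991 CPM in CR78, 788 CPM in CR79 and 180.0 CPM in WT at 72 HAF. In the 48 HAF libraries that sum lay between 1.29 and 17.5 CPM. Wx (LOC_Os06g04200) made up most of the sum in CR78, CR79 and WT at 72 HAF, at 652, 533 and 115 CPM. In OE78 at 72 HAF, RPBF (LOC_Os02g15350), RISBZ1 (LOC_Os07g08420) and FIE1 (LOC_Os08g04290) had 33.2, 16.05 and 39.7 CPM. These were above WT (18.5, 2.55 and 28.8 CPM), and all other endosperm markers were below WT in that library. All 8 endosperm markers were higher at 72 HAF (edgeR), as were all 3 genes listed for the green pericarp, a maternal layer of the fruit wall, 1 of which failed the check of its name.

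All 10 genes were read in every library. The fewest reads were the 28 of MADS16 in CR79 at 72 HAF, and the most were the 8013 of MADS13 in OE79 at 48 HAF. CPM is not divided by transcript length, so levels are compared between libraries and not between genes. MADS2 and MADS4, MADS3 and MADS58, and MADS13 and MADS21 are close pairs, and how reads shared between near-identical stretches were counted was not given in the sources used here.

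The C-class genes were present throughout. MADS3 had 416 CPM in OE78, 379 in OE79, 394 in CR78, 357 in CR79 and 339 in WT at 72 HAF. The 48 HAF libraries had 271 CPM in OE78, 316.5 in OE79, 414 in CR78, 299 in CR79 and 321 in WT. The times overlapped, and both extremes of the 10 libraries belonged to OE78. MADS58 had 499 CPM in OE78, 493 in OE79, 456 in CR78, 288 in CR79 and 424 in WT at 72 HAF. The 48 HAF values were 338 CPM in OE78, 423 in OE79, 388 in CR78, 257 in CR79 and 392 in WT. CR79 held the 2 lowest values of MADS58, below all 8 other libraries, as it did for 6.31% of all tested genes.

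MADS13 and MADS21 are the ovule genes. MADS13 had 423 CPM in OE78, 432 in OE79, 331 in CR78, 293 in CR79 and 329 in WT at 72 HAF. In the 48 HAF libraries it lay between 425.5 CPM in OE78 and 472 in CR79, and the highest of those 5 libraries was 1.11 times the lowest. Over the 17364 genes with a mean of at least 5 CPM and reads in all 5 libraries, the median of that ratio at 48 HAF was 1.40. At 72 HAF the ratio was 1.47 for MADS13, against a median of 1.46 over 17434 genes. MADS21 ranged from 338 CPM in CR79 to 515 CPM in OE78 at 72 HAF, with a median of 394 CPM, and from 319 CPM in OE78 to 429 CPM in CR78 at 48 HAF, with a median of 353 CPM.

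Among the B-sister genes, MADS29 varied least, between 157 CPM in OE78 and 112 CPM in WT at 72 HAF and between 115 CPM in OE78 and 136 CPM in CR79 at 48 HAF. MADS31 had 47.8 CPM in OE78, 45.3 in OE79, 30.45 in CR78, 27.5 in CR79 and 34.8 in WT at 72 HAF. Its 48 HAF levels were 41.4 CPM in OE78, 48.6 in OE79, 50.1 in CR78, 34.1 in CR79 and 54.4 in WT. CR78 and CR79 at 72 HAF held its 2 lowest values. MADS30, a diverged member of this lineage, had 73 to 120 reads per library and stayed between 4.76 and 6.86 CPM, so small changes of it could not be resolved at this depth.

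Of the 10 genes, MADS16 spread most between libraries of a time. This gene, the rice member of the APETALA3 lineage, had 11.9 CPM in OE78, 15.2 in OE79, 3.86 in CR78, 2.47 in CR79 and 8.33 in WT at 72 HAF. At 48 HAF MADS16 had 32.4 CPM in OE78, 18.7 in OE79, 25.4 in CR78, 10.3 in CR79 and 20.9 in WT. Within each time the highest library had 6.13 times the level of the lowest at 72 HAF and 3.14 times at 48 HAF. MADS4, of the PISTILLATA lineage, had 107 CPM in OE78, 94.8 in OE79, 74.2 in CR78, 68.6 in CR79 and 79.4 in WT at 72 HAF. It was tighter at 48 HAF, from 77.5 CPM in CR79 to 92.1 CPM in OE78. Its paralog MADS2 ranged from 13.8 CPM in CR78 to 18.4 CPM in OE79 at 72 HAF and from 15.1 CPM in CR79 to 28.5 CPM in OE78 at 48 HAF.

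**Figure D1:**
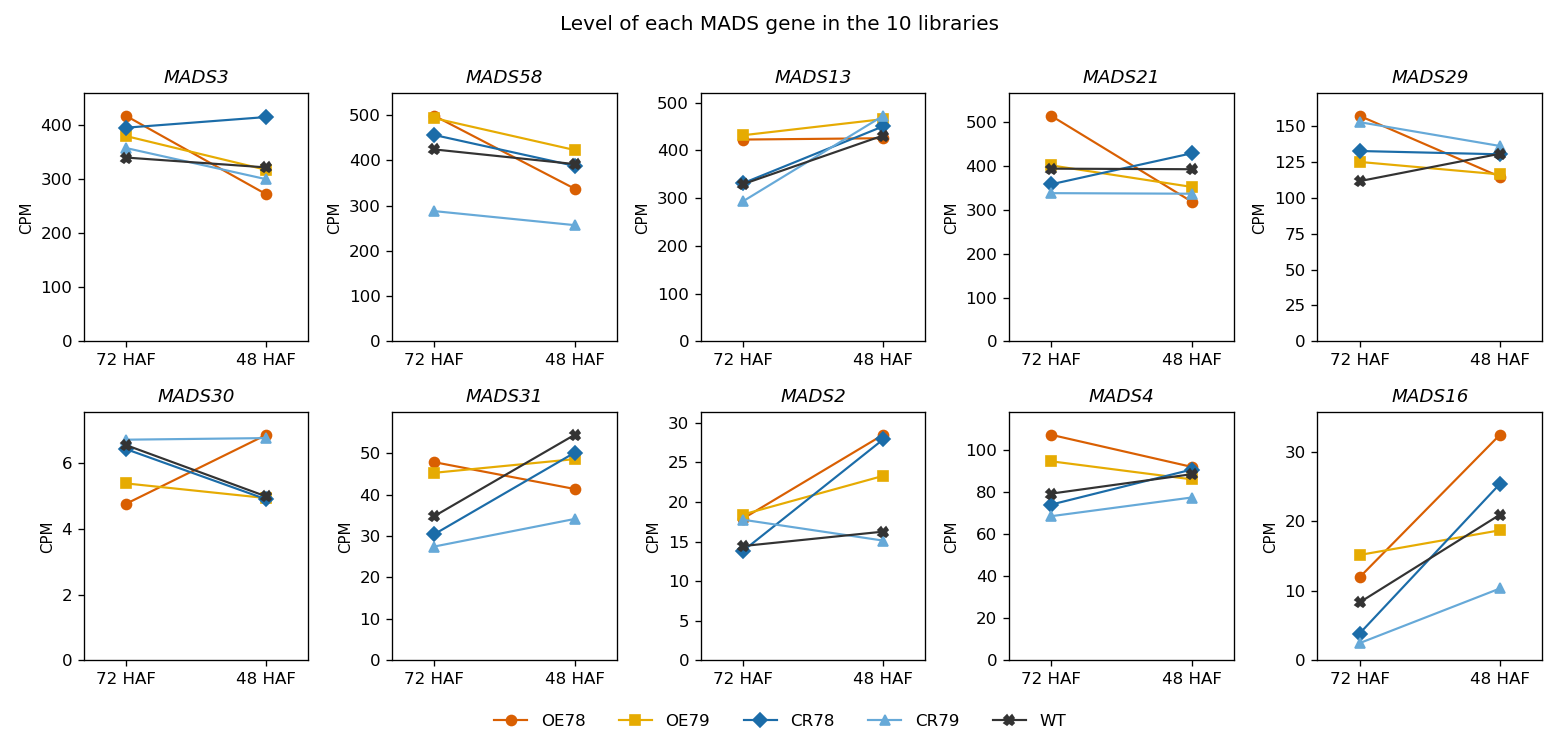
Level of each gene in CPM (vertical axis, from 0) at 72 and 48 HAF (horizontal axis), with 1 point per library and a line joining the 2 libraries of a genotype. MADS16 is lower at 72 HAF in all 5 genotypes, from 15.2 CPM in OE79 to 2.47 CPM in CR79, and CR79 holds the 2 lowest values of MADS58.

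At 72 HAF MADS16 was lower than at 48 HAF, and the other 9 genes did not pass the test of 1 common time effect over the 5 genotypes. MADS16 averaged 8.35 ± 5.34 CPM at 72 HAF and 21.6 ± 8.18 CPM at 48 HAF (SD, n = 5 genotypes at each time). Its log2 fold change was -1.52 (SE 0.301, 95% interval -2.20 to -0.83, edgeR adjusted p = 0.00736), and it was lower at 72 HAF in 5 of 5 genotypes. The ratio of the 72 to the 48 HAF level was 0.368 in OE78, 0.81 in OE79, 0.152 in CR78, 0.24 in CR79 and 0.398 in WT. The times overlapped, as OE79 at 72 HAF lay above CR79 at 48 HAF. In these whole-seed samples, fewer cells that express a gene and less RNA of it per cell cannot be told apart.

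Of the 3 embryo and meristem markers, OSH1 is given in every library because its levels resembled those of MADS16, a choice made after its values were seen. OSH1 (LOC_Os03g51690), a KNOX homeobox gene of shoot meristems and the early embryo, had 6.52 CPM in OE78, 12.96 in OE79, 2.23 in CR78, 1.59 in CR79 and 8.27 in WT at 72 HAF. The 48 HAF libraries had 23.4 CPM in OE78, 19.1 in OE79, 21.9 in CR78, 9.10 in CR79 and 11.97 in WT. OE79 had the highest and CR79 the lowest level of both OSH1 and MADS16 at 72 HAF, and OE78 the highest and CR79 the lowest of both at 48 HAF. OSH1 fell at 72 HAF, by 1.63 on the log2 scale with SE 0.396 (edgeR adjusted p = 0.017). OSH15 (LOC_Os07g03770) fell too (log2 fold change -1.68, edgeR adjusted p = 0.0406), but its extremes lay mostly in other libraries than those of MADS16. At 48 HAF OSH15 was lowest in WT (1.47 CPM, with CR79 at 1.84 CPM) and highest in CR78 (5.15 CPM, with OE78 at 3.66 CPM). At 72 HAF it was lowest in CR78 (0.474 CPM, with CR79 at 0.530 CPM) and, like MADS16, highest in OE79 (1.99 CPM). The embryo regulator LEC1 (LOC_Os02g49370) rose (log2 fold change 4.01, edgeR adjusted p = 0.00456), and at 72 HAF it was lowest in OE78 (0.391 CPM) and highest in CR78 (4.33 CPM). The summed level of the 3 was 3.71 to 16.3 CPM at 72 HAF and 10.9 to 27.1 CPM at 48 HAF. The part of the tissue that carries OSH1 in the MADS16 levels was not tested.

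For the members a count of 1 of 10 lower is close to the background, since 12.9% of all 25354 tested genes were called lower and 28.1% were called in either direction. The median log2 fold change was 0.01 over the 10 genes and -0.02 over all tested genes. Without both the OE78 and CR78 libraries at 48 HAF, the log2 fold change of MADS16 was -1.16 and it no longer passed (edgeR adjusted p = 0.0839), in a fit with 8 libraries. That run was chosen after the data were seen, and OE78 and CR78, with 1 library left each, add nothing to its time effect. Leaving out any single library, the log2 fold change of MADS16 lay between -1.85 and -1.23. Runs without either library of a line nearly repeat each other, as the library left then adds nothing to the time effect.

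Unadjusted p-values were under 0.05 for 3 more genes, so for 4 of 10, against 40.3% of all tested genes. MADS13 was lower at 72 HAF in 5 of 5 genotypes, at 361.5 ± 61.9 CPM at 72 HAF and 449 ± 20.6 CPM at 48 HAF (SD, n = 5 genotypes each), a log2 fold change of -0.33 with SE 0.115 (edgeR adjusted p = 0.0643). In OE78 its level hardly changed, at a ratio of 72 to 48 HAF of 0.9935, and the ratio was 0.927 in OE79. It was 0.735 in CR78, 0.62 in CR79 and 0.763 in WT. MADS58 was higher at 72 HAF in 5 of 5 genotypes, at 432 ± 86.0 CPM at 72 HAF and 359.5 ± 65.0 CPM at 48 HAF, a log2 fold change of 0.26 with SE 0.0946 (edgeR adjusted p = 0.0734). MADS2 had a log2 fold change of -0.40 (edgeR adjusted p = 0.118) and was lower at 72 HAF in 4 of 5 genotypes, CR79 being the exception. Without CR79 at 48 or at 72 HAF it passed, at -0.55 and -0.53 (edgeR adjusted p = 0.0408 and 0.0458), and without CR78 at 48 or at 72 HAF it was -0.24. MADS13 passed without OE78 at 48 or at 72 HAF, at -0.41 in each case (edgeR adjusted p = 0.0447 and 0.0445). For each line, these runs without its 48 or its 72 HAF library nearly repeat each other and are not separate support. DESeq2 called MADS58 (adjusted p = 0.0471) and MADS13 (adjusted p = 0.0343) as well as MADS16. For the B-sister gene MADS29 the 95% interval of the log2 fold change ran from -0.13 to 0.34, and for MADS4 from -0.27 to 0.17.

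**Figure D2:**
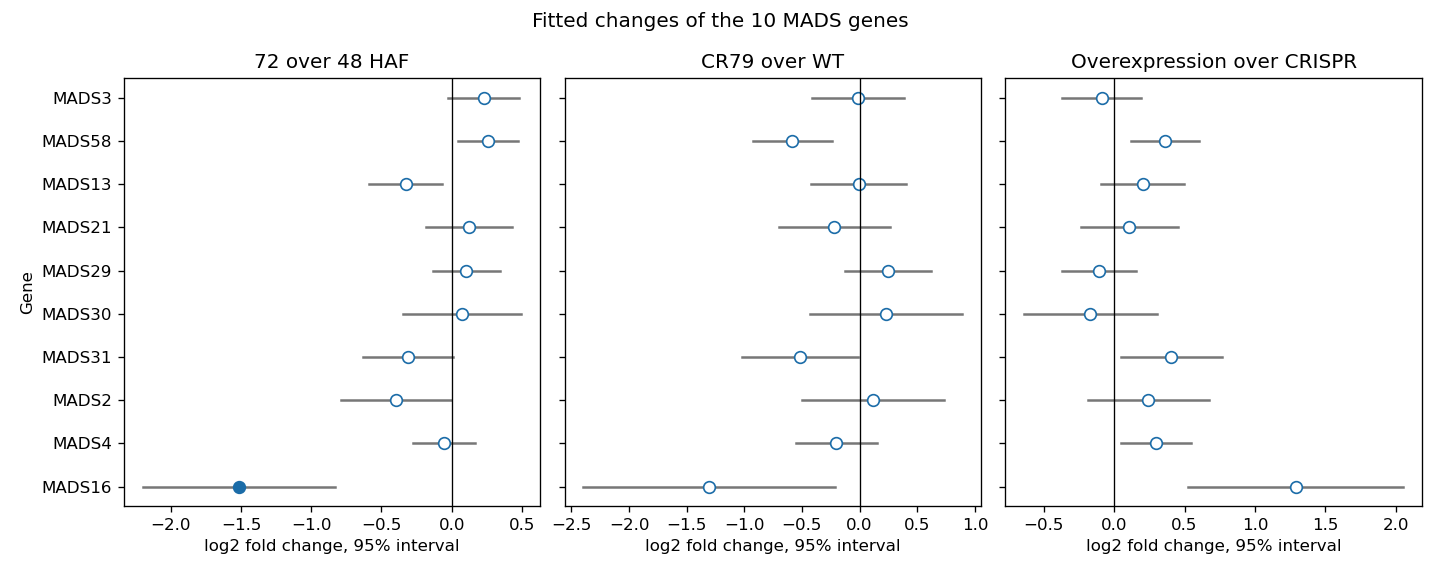
Log2 fold change with its 95% interval (horizontal axis) for each gene (vertical axis) in 3 comparisons fitted over all 10 libraries. Filled points have an edgeR adjusted p under 0.05, which holds for MADS16 at 72 over 48 HAF alone, and open points do not.

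The balance between paralogs, taken as shares of reads within a library, does not depend on how libraries are scaled. MADS58 made up 44.7% of the reads of MADS58 and MADS3 in CR79 at 72 HAF (95% Wilson interval 43.5 to 45.8) and 46.2% at 48 HAF (45.2 to 47.2). In WT it made up 55.6% at 72 HAF (54.8 to 56.4) and 55.0% at 48 HAF (54.1 to 55.9). OE78 and OE79 lay between 54.5% and 57.2%. CR78 was at 53.6% at 72 HAF and at 48.4% at 48 HAF. The 48 HAF library of CR78 is the one with raised heat shock genes, and a link to the share was not tested. These intervals cover counting error only, and no replicate stands behind a share.

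MADS16 made up 2.78% of the reads of the B-class genes MADS16, MADS2 and MADS4 in CR79 at 72 HAF (1.93 to 3.99) and 4.20% in CR78 at 72 HAF (3.26 to 5.40). The share at 72 HAF was 8.70% in OE78, 11.8% in OE79 and 8.15% in WT (6.99 to 9.49). In the 48 HAF libraries the share was 21.2% in OE78, 14.6% in OE79, 17.6% in CR78, 10.03% in CR79 and 16.6% in WT. The share was thus lower at 72 HAF in 5 of 5 genotypes, as was the share of MADS13 among the reads of MADS13 and MADS21. That share stood at 45.1% in OE78, 51.8% in OE79, 48.0% in CR78, 46.4% in CR79 and 45.5% in WT at 72 HAF. The 48 HAF shares were 57.1% in OE78, 56.9% in OE79, 51.2% in CR78, 58.4% in CR79 and 52.3% in WT.

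Between the B-sister genes MADS31 and MADS29, the share of MADS31 was 23.3% in OE78, 26.6% in OE79, 18.7% in CR78, 15.2% in CR79 and 23.8% in WT at 72 HAF. It was 26.5% in OE78, 29.5% in OE79, 27.8% in CR78, 20.04% in CR79 and 29.4% in WT at 48 HAF, so it too was lower at 72 HAF in 5 of 5 genotypes and lowest in CR79 at each time. MADS2 made up 14.3% to 20.5% of the MADS2 and MADS4 reads at 72 HAF and 15.5% to 23.6% at 48 HAF. CR79 had the highest of those shares at 72 HAF and WT the lowest at 48 HAF.

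**Figure D3:**
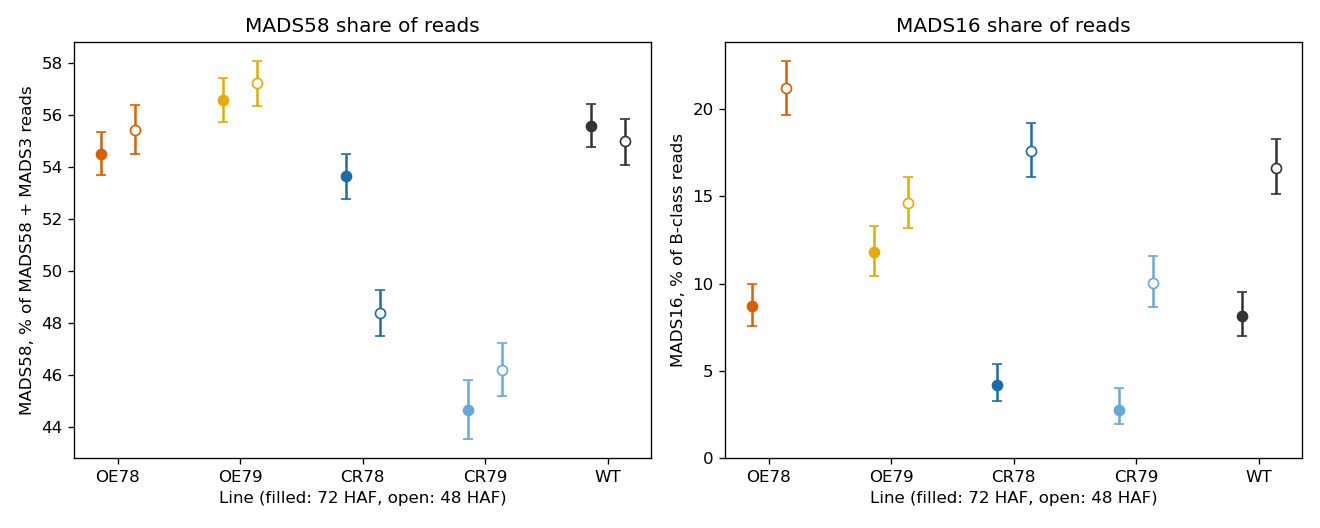
Share of reads within each library, in percent (vertical axes, the left one not starting at 0), by line (horizontal axes), with 95% Wilson intervals for counting error. Filled points are 72 HAF and open points are 48 HAF. MADS58 is at 44.7% and 46.2% of the MADS58 and MADS3 reads in the CR79 libraries, and MADS16 has its smallest shares in CR79 and CR78 at 72 HAF.

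In CR79, the C-class gene MADS58 stood below WT by similar factors at both times, and no member passed the test over all genes. Its ratio to WT was 0.679 at 72 HAF and 0.656 at 48 HAF, with a fitted log2 fold change of -0.59 (SE 0.15, 95% interval -0.93 to -0.24, edgeR adjusted p = 0.0799). MADS16 stood at 0.297 of the WT level at 72 HAF and 0.493 at 48 HAF, with a log2 fold change of -1.31 (SE 0.477, 95% interval -2.40 to -0.22, edgeR adjusted p = 0.166). MADS31 stood at 0.789 of the WT level at 72 HAF and 0.627 at 48 HAF, a log2 fold change of -0.52 with SE 0.221 (edgeR adjusted p = 0.221), which was -0.30 without WT at 48 HAF. Those 3 of 10 genes had an unadjusted p under 0.05, against 21.8% of all tested genes, and DESeq2 called MADS58 (adjusted p = 0.0205) and MADS16 (adjusted p = 0.0409). MADS3, the other C-class gene, had a log2 fold change of -0.02, with a 95% interval from -0.41 to 0.38.

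Of all tested genes, 2.19% were called in CR79 against WT, so a count of 0 of 10 is not far from the background. CR79 lay below WT at both times for 5 members (MADS58, MADS21, MADS31, MADS4 and MADS16), against 34.2% of all tested genes, and above WT at both times for MADS29 and MADS30, against 31.3%. For MADS29 the log2 fold change was 0.25, with a 95% interval from -0.13 to 0.62. Leaving out 1 library at a time, the log2 fold change of MADS58 stayed between -0.66 and -0.49 and did not pass.

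In CR78 none of the 10 genes passed against WT (edgeR, with 0.0749% of all tested genes called), none had an unadjusted p under 0.05 (5.4% of all tested genes), and DESeq2 called none. MADS16 stood at 0.463 of the WT level at 72 HAF and at 1.21 times it at 48 HAF, so its single-library ratios went opposite ways. It was the only member that was lower than WT by 2-fold or more in CR78 at 72 HAF, where 2.89% of all tested genes were lower by as much. In CR79 at 72 HAF it was again the only such member, against 4.99% of all tested genes. CR78 lay above WT at both times for MADS3 and MADS13 (26.4% of all tested genes) and below it for MADS30 and MADS31 (28.3%). MADS3 stood at 1.16 times the WT level at 72 HAF and 1.29 times at 48 HAF.

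In OE78, the line with raised MADS78 reads at 72 HAF, no member passed against WT (edgeR, with 0.142% of all tested genes called). None had an unadjusted p under 0.05 (4.82% of all tested genes), and DESeq2 called none. The B-class genes MADS2, MADS4 and MADS16 were above WT at both times (23.2% of all tested genes), and no member was below it at both (23.7%). MADS2 stood at 1.24 times the WT level at 72 HAF and 1.75 times at 48 HAF, with a log2 fold change of 0.56 (95% interval -0.05 to 1.18). The OE78 library at 72 HAF held the highest of the 10 levels for 5 members (MADS3, MADS58, MADS21, MADS29 and MADS4), where 6.98% of all tested genes had their highest level in it. None of the 11 partner genes had its highest level there. This is a single library, and the pattern was seen after the values were known.

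In OE79 no member passed either (edgeR, with 0.154% of all tested genes called), none had an unadjusted p under 0.05 (3.3% of all tested genes), and DESeq2 called none. MADS58, MADS13 and MADS2 were above WT at both times (23.6% of all tested genes), at up to 1.43 times the WT level, and MADS30 was below it (24.2%). The widest 95% interval belonged to MADS16, from -0.58 to 1.48 on the log2 scale, so both no change and a rise of more than 2-fold lie within it.

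**Figure D4:**
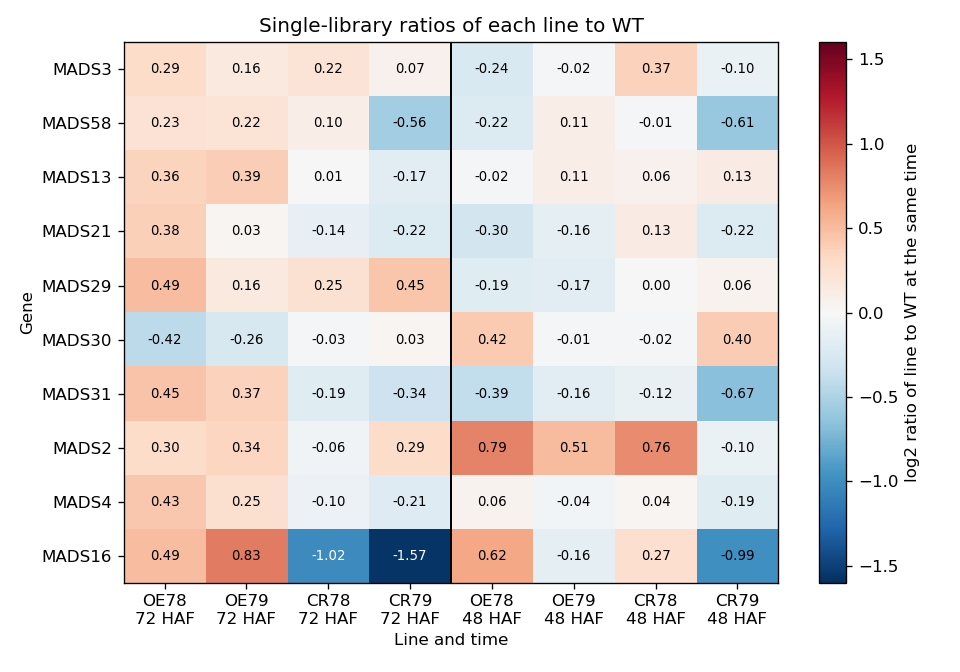
Log2 ratio of each line to WT at the same time, computed as CPM plus 0.5 (colour and number), for the 10 genes (rows) and 4 lines at 72 HAF (left) and 48 HAF (right). Each cell compares 1 library with 1 library and has no test. MADS16 has the lowest values, -1.57 in CR79 and -1.02 in CR78 at 72 HAF.

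The lines labelled as overexpressing were then set against the CRISPR lines. At 72 HAF both overexpression libraries lay above both CRISPR libraries for 7 of 10 members, namely MADS58, MADS13, MADS21, MADS31, MADS2, MADS4 and MADS16. Among all tested genes, 23.7% showed that order. MADS30 alone showed the opposite order, against 26.2% of all tested genes. At 48 HAF no member had both overexpression libraries above both CRISPR libraries (20.7% of all tested genes), and MADS29 alone had the opposite order (18.5%). The counts were the same with RLE or total-count scaling, and the order was looked for after the values were known.

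In the fit over both times no member passed for overexpression against CRISPR lines (edgeR, with 0.572% of all tested genes called). MADS16 had a log2 fold change of 1.29 (SE 0.334, 95% interval 0.52 to 2.05, edgeR adjusted p = 0.118), and DESeq2 called it (adjusted p = 0.00126). MADS58, at 0.36, MADS31, at 0.405, and MADS4, at 0.29, also had an unadjusted p under 0.05 (edgeR adjusted p = 0.145 to 0.226). These 4 of 10 were all higher in the overexpression lines, against 8.84% of all tested genes in that direction and 18.1% in either. Without OE78 at 72 HAF the value of MADS31 was 0.24. For MADS58 the CRISPR lines differed, with CR78 at 1.075 and 0.990 of the WT level at 72 and 48 HAF. CR79 stood at 0.679 and 0.656 of it. The median log2 fold change was 0.22 over the 10 genes and 0.00 over all tested genes.

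Whether the change over time differed between the classes was tested as the difference of 72 over 48 HAF in overexpression lines minus that in CRISPR lines. The main fit used class means and left the pairing of libraries by line unused. No member passed (edgeR, with 0.0225% of 26632 tested genes called), and 3 had an unadjusted p under 0.05, against 9.73% of all tested genes. These were MADS13, with a difference of 0.51 on the log2 scale (95% interval 0.06 to 0.95, edgeR adjusted p = 0.439), MADS21, with 0.59 (0.02 to 1.16, edgeR adjusted p = 0.498), and MADS16, with 1.56 (0.14 to 2.99, edgeR adjusted p = 0.459). Without CR78 at 48 HAF, the library with raised heat shock genes, the value of MADS16 was 0.77, and without CR79 at 48 HAF it was 2.07. A link between heat shock and the value of MADS16 was not tested. DESeq2 called none. With the line as a block, 1063 genes passed in place of 6, again without a member, and MADS16 had an edgeR adjusted p = 0.051. MADS4 was higher at 72 HAF in both overexpression lines, by 1.17 times in OE78 and 1.099 times in OE79, and lower in CR78, CR79 and WT, at 0.817, 0.885 and 0.896 of the 48 HAF level. The median difference was 0.39 over the 10 genes and -0.03 over all tested genes. Over the 11 partner genes it was 0.60, and 5 of them had an unadjusted p under 0.05 (edgeR).

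CR78 and CR79 at 72 HAF were the 2 lowest of the 10 libraries for MADS31, MADS4 and MADS16, or 3 of 10 members, and for 10.2% of all tested genes. The pattern was not particular to the members. It held for 5 of the 11 partner genes (MADS5, MADS34, MADS6, MADS18 and MADS32) and for the carpel gene DL, described below. CR78 and CR79 at 72 HAF were also the 2 libraries with the highest sums of endosperm markers, given above. The part of endosperm share in these levels was not tested. Of the 8 anther and tapetum markers, 1 of which failed the check of its name, chosen because B-class and C-class genes are known from stamens, the summed level was 34.5 to 45.5 CPM at 72 HAF and 41.6 to 56.7 CPM at 48 HAF. Most of it was GAMYB (LOC_Os01g59660), an activator of gibberellin response that is also active in cereal seeds, at 27.2 to 48.6 CPM. The tapetum regulators TDR (LOC_Os02g02820) and EAT1 (LOC_Os04g51070) stood at most at 0.307 and 0.411 CPM. The tapetum gene C6 (LOC_Os11g37280) was at 0 in 9 of 10 libraries and had 0.0665 CPM in OE79 at 72 HAF. The other listed markers were read in every library. UDT1 (LOC_Os07g36460) had 1.63 to 4.12 CPM, CYP703A3 (LOC_Os08g03682) 1.06 to 3.14 CPM and CYP704B2 (LOC_Os03g07250) 0.665 to 3.26 CPM. PTC1 (LOC_Os09g27620), which failed the check of its name, had 0.565 to 1.09 CPM. The summed anther markers were 45.5 CPM in OE78, 39.3 CPM in OE79, 36.7 CPM in CR78, 34.5 CPM in CR79 and 44.0 CPM in WT at 72 HAF.

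Against 12.9% of all tested genes called lower, 3 of the 11 partner genes fell at 72 HAF and none rose (edgeR). They were MADS17 (LOC_Os04g49150) and MADS6 (LOC_Os02g45770), both of the AGL6 type, with log2 fold changes of -0.78 and -0.52 (edgeR adjusted p = 0.00286 and 0.0248), and MADS32 (LOC_Os01g52680), at -1.30 (edgeR adjusted p = 0.0127). All 5 libraries at 72 HAF lay below all 5 at 48 HAF for these 3 genes, as for 7.88% of all tested genes, and for none of the 10 members. DL (LOC_Os03g11600), a YABBY gene of carpel identity, fell too (log2 fold change -0.83, SE 0.11, edgeR adjusted p = 0.00111), to between 60.25 and 106 CPM at 72 HAF, against 133 to 161 CPM at 48 HAF. At 72 HAF both overexpression libraries lay above both CRISPR libraries for 8 of the 11 partner genes, against 23.7% of all tested genes. The vacuolar processing enzymes, proteases known from the programmed death of plant cells such as those of the nucellus, were tested as well. Of 4 genes 3 were higher at 72 HAF (edgeR), with VPE4 (LOC_Os05g51570) at a log2 fold change of 1.005, VPE2 (LOC_Os01g37910) at 0.48 and VPE1 (LOC_Os04g45470) at 0.46. Of all 25354 tested genes, 3843 were called higher.

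Likeness of pattern was measured, without a test, as the root mean square difference of log2 levels over the 10 libraries, each gene centred on its own mean. Each gene was set against the 9 other members and the 11 partner genes. MADS13 was nearest to MADS5 and MADS7, SEPALLATA type genes, with differences of 0.0658 and 0.1055, against a median of 0.308 over the 20 genes. MADS29 was nearest to MADS3 and MADS21, with differences of 0.177 and 0.196 against a median of 0.361. MADS4 was nearest to MADS7 and MADS21, with differences of 0.114 and 0.151 against a median of 0.255. All of these share the same 10 libraries and their scaling. The measure is not scaled to the spread of a gene, so genes that vary little, such as MADS29, lie near other such genes without a shared pattern.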

How the data were processed

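RNA-seq libraries of whole seeds were analysed from the deposited counts, which are raw whole-number reads per gene. Per the submitters' processing notes, TopHat2 and HTSeq were used. Genome build, annotation release and strand mode were not given in the sources used here, so overlapping and antisense genes cannot be told apart. Groups follow the labels. Genes were kept with edgeR's low-count filter at a minimum count of 10 (25354 genes in the additive fit, 26632 in the class by time fit), and CPM is the count over the TMM-scaled library total. The quasi-likelihood test of edgeR 4.0.16 (R 4.3.3) was two-sided, and p-values were adjusted by Benjamini-Hochberg across every gene kept, with calls at 0.05. Time, line and overexpression against CRISPR effects were contrasts of a single additive model (genotype plus time, 10 libraries), and the class by time difference from class means, each with 4 residual degrees of freedom. In place of replicates, the additive fit has both times of a line, and the other fit both lines of a class. SE is the log2 fold change over the root of F. The labels pair the libraries by line, which the additive fit uses. Checked as the correlation of both libraries of a line in their deviation from the time's mean, the pairing gave -0.0344 in OE78, 0.334 in OE79, 0.0777 in CR78, 0.365 in CR79 and 0.339 in WT. On simulated data for the time effect (25354 genes), 92% of 100 genes changed 2-fold and 100% of 100 changed 4-fold were recovered, with 11 false calls. Only genes above a minimum of reads were changed and the simulated lines did not differ. Spread was drawn from its trend with gene level, so no simulated gene had extra spread of its own. Genes with such spread may be recovered less often. Recovery for the class by time difference is not reported here. Changes under 2-fold were not simulated, so recovery of such changes is not known. Alternatives were RLE scaling, no filter, DESeq2 1.42.0, other treatment of the line, and leaving out libraries. Where a run leaves an arm with 1 library, its spread is taken to equal that of the rest.

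Members and lists were chosen with earlier results of these data known. All members, MADS78 and MADS79 are named, and from the other lists up to 4 genes that passed, or up to 2 of the most abundant. The anther and tapetum markers are all named, outside this rule. Names were checked against RefSeq (assembly ASM3414082v1) by chromosome and by relative place, with a tolerance of 5%. The RefSeq start, as a part of the furthest start on the chromosome, was set against the relative rank of the locus in gene order. These places can differ where genes lie unevenly, so a failure alone does not show that a name is wrong. Of 10 members 9 passed, and MADS31 has no entry under that name. Over all lists 37 of 55 passed, 16 had no entry, and 2 failed, the anther marker PTC1 and the pericarp marker Cab1R, which stayed in their lists. Names without an entry rest on published identifiers. No coordinates are given, since the build of the files is not stated. A planned search of promoters for the CArG box was not run, as promoter sequence was not used here.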

Additional observations from a re-analysis of the deposited data

How the results depend on the processing

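Depth limits MADS30 and MADS16 most, with as few as 73 and 28 reads in a library, and 1 library per genotype and time limits everything. Of 389 alternative values over 31 results, 302 were the same, 74 moved, 12 newly passed, 1 no longer passed and 0 reversed. For a fold change, the same means the same direction and call. For a count of genes it means a total equal to the main count or within a set factor of it, whichever genes were called. Counts outside that factor moved. For likeness it means the same nearest genes. For the time effect, 2 members passed without the low-count filter, with 7035 genes in all, and 3 with DESeq2, with 6733. None passed without both the OE78 and CR78 libraries at 48 HAF (2388 genes, MADS16 at -1.16). Leaving out 1 library gave 1 to 3 members and 4388 to 5835 genes, fewest without CR78 at 48 or 72 HAF (4388 and 4397). Without the term for the line, that is with no replicate block, 6255 genes and MADS16 alone among members passed (adjusted p = 0.0412, edgeR). Without the filter and with DESeq2, 106 and 131 genes passed for OE78 (5 to 36 leaving out 1 library), 85 and 108 for OE79 (2 to 36), 100 and 94 for CR78 (2 to 27) and 1059 and 1212 for CR79 (7 to 283). The fewest came without a WT library in each of these 4 comparisons. No member passed in these runs apart from 2 with DESeq2 for CR79. Overexpression against CRISPR gave 642 genes without the filter and 792 with DESeq2, each with 1 member, MADS16, and 6 to 110 leaving out 1 library, fewest without OE79 at 72 HAF, with 0 members. The class by time difference gave 1003 genes and 1 member, MADS16, without the filter (edgeR adjusted p = 0.0206), 528 with DESeq2, 3 with the genes of the additive filter, a run chosen after the data were seen, and 0 to 164 leaving out 1 library. With the line as a replicate block it gave 1063. The cause of these shifts was not tested. With a pseudocount of 0.1 the smallest differences in pattern were 0.0671 for MADS13, 0.178 for MADS29 and 0.114 for MADS4.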
